A study of Mus musculus with 9 samples.

Results

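A set of 9 genes of the complement system was followed in mouse hepatoma cells, out of 53647 genes with a row in the count table. They were taken by symbol whatever their level: the initiating proteases C1ra, C1s1 and Masp1, the convertase parts C4b, C2, C3 and Cfb, the plasma inhibitor Cfi, and the membrane regulator Cr1l. Their transcripts were counted by sequencing the mRNA of Hepa 1-6, a hepatoma line of mouse liver grown in culture, in 9 samples. There were 3 libraries of Usp5 knockout cells made with a pLentiCRISPR guide, 3 of Ythdf1 knockout cells made with CRISPR/Cas9/EGFP plasmids, and 3 of control cells with the sgControl guide. Usp5 encodes a deubiquitinase that takes apart free ubiquitin chains, and Ythdf1 encodes a cytoplasmic reader of N6-methyladenosine in mRNA. The knockout lines were selected as single-cell clones and checked by immunoblot, and the labels do not say how many clones the 3 libraries of a group represent. Effects of a gene, of a clone and of the different ways the knockout lines were made therefore cannot be told apart.

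Complement is a cascade of plasma proteases made mainly by hepatocytes. The classical and lectin pathways start with C1r, C1s and MASP proteases, which cleave C4 and C2 to form a C3 convertase, while factor B supplies the protease of the alternative pathway convertase. Both convertases split C3, the most abundant component in plasma. Factor I with its cofactors and, on rodent cells, the C3b-binding regulator Crry encoded by Cr1l stop the process. In the mouse, C2, C3, C4b (ENSMUSG00000024371, ENSMUSG00000024164 and ENSMUSG00000073418) and Cfb (ENSMUSG00000090231) lie on chromosome 17, and C1ra (ENSMUSG00000055172) and C1s1 (ENSMUSG00000038521) on chromosome 6. Cfi (ENSMUSG00000058952) lies on chromosome 3, Masp1 (ENSMUSG00000022887) on 16 and Cr1l (ENSMUSG00000016481) on 1. Hepatocytes raise C3 and factor B in the acute phase response to interleukin-1, interleukin-6 and interferon-gamma.

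C3, C1ra and C1s1 all fell in the Usp5 knockout, as described further on, and their promoters are shown because they are the 3 fallers of the set. The reference table of promoters (RefSeq, build GRCm38.p6, 250 bases before and 50 after each start) held 4 of the 9 genes, the other one being Cr1l. Capitals mark matches to TTGCNNAA, a motif of C/EBP factors, or to TTCNNNGAA, a motif of STAT factors, on either strand, and the matches do not overlap. The windows are chr17:57228087-57228386 on the minus strand for C3, chr6:124512371-124512670 on the plus strand for C1ra and chr6:124542310-124542609 on the minus strand for the first of the 2 listed C1s1 starts, each printed 5′ to 3′ in the direction of the gene.
C3: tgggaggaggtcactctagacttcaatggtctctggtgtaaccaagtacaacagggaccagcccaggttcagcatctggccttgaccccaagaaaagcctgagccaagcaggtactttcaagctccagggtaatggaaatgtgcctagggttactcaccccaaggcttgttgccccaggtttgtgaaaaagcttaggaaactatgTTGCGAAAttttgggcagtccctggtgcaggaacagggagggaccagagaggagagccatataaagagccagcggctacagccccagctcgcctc
C1ra: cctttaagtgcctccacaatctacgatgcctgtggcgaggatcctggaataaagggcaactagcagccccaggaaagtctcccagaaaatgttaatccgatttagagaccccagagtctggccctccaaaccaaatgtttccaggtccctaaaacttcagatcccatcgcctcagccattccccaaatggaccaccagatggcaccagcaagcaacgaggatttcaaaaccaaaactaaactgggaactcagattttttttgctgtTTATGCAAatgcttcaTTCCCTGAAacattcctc
C1s1: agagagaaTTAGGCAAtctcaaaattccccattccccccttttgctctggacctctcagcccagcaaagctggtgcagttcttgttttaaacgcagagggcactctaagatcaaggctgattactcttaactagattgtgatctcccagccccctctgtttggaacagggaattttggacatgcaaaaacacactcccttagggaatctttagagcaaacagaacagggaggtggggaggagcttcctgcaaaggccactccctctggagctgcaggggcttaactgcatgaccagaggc

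The C3 window held TTGCGAAA at positions -45 to -38 from the start, read on the strand of the gene. In C1ra, TTATGCAA, the C/EBP motif read on the other strand, lay at 17 to 24 and TTCCCTGAA, a STAT motif match, at 33 to 41 after the start. The C1s1 window held TTAGGCAA, again on the other strand, at -242 to -235, and the window of its other start, which begins further downstream, held no match. The Cr1l window held no match to any motif searched. A C/EBP match was present in 10.8% and a STAT match in 8.30% of all 32851 promoter windows of this length. None of the 4 genes' windows held the searched forms of the NF-kB site or the interferon response element, nor GGGCGG of GC boxes, CACGTG of E boxes or TGNACTTTG of HNF4, which were present in 1.20%, 3.44%, 35.7%, 7.15% and 1.41% of all windows. A match here is a run of letters and not a measured binding site.

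Libraries held 24760877 to 42989715 counts. Usp5 transcripts stood at 109.5 to 122 CPM (counts scaled to a common library total) in the Usp5 knockout, 192 to 226 in the Ythdf1 knockout and 184 to 251 in controls, and Ythdf1 transcripts stood at 43.8 to 47.5 CPM in the Ythdf1 knockout, 190.0 to 214 in the Usp5 knockout and 195 to 204 in controls. Each target was thus lowest in its own knockout, with the Usp5 transcript retained at 54.0% and the Ythdf1 transcript at 25.6% of control. The third control library stood apart from the other controls by a count-based distance. Its chi-square per degree of freedom was 147 and 128, against 15.1 between the first and the second. The value was 46.3 to 62.9 among the Usp5 knockout libraries and 3.58 to 27.8 among the Ythdf1 knockout libraries. Of the hepatocyte markers, Alb and Afp were abundant, at 578 CPM or more in every library, whereas Fgg, Apoa1 and Ttr stayed at or under 1.21 CPM. Leukocyte genes summed to 29.2 to 34.8 CPM in the Usp5 knockout, 55.1 to 62.5 in the Ythdf1 knockout and 36.5 to 42.2 in controls, most of it Cd14, with Tyrobp and Cd3e at 0 in all libraries and Ptprc at or under 0.252 CPM. Endothelial markers summed to at most 1.25 CPM.

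C3 fell 39.7-fold in the Usp5 knockout, by far more than the next tested genes of the set, C1s1 (1.97-fold lower) and Masp1 (1.96-fold higher). Among the 8 genes with enough counts for the test, C3, C1s1 and C1ra fell and Masp1 and Cr1l rose in the Usp5 knockout. Ythdf1 knockout cells differed: Cfb, C1ra and C3 fell and Cfi, Masp1 and Cr1l rose. Thus 5 of 8 genes passed in the Usp5 knockout and 6 of 8 in the Ythdf1 knockout, at a Benjamini-Hochberg adjusted p under 0.05 in edgeR's quasi-likelihood test over 13661 genes. The background was 19.8% of all tested genes in the Usp5 comparison and 46.5% in the Ythdf1 comparison. Between the knockouts, Cfb and Masp1 were higher and C3, Cfi and C1s1 lower in the Usp5 knockout, which is 5 of 8 against a background of 48.5%. Median log2 fold changes of the 8 genes were -0.15 and -0.06 for the Usp5 and Ythdf1 knockouts against control and -0.14 for the Usp5 against the Ythdf1 knockout, beside -0.0123, 0.0211 and 0.000278 over all genes tested. The background in the Usp5 comparison, 2700 genes, moved with single libraries: leaving out control replicate 1 gave 1736 genes, control replicate 2 gave 1494, control replicate 3 gave 4371 and the second Usp5 knockout library gave 1626. With a change of at least 2-fold asked for as well, C3 passed in the Usp5 knockout and Cfb in the Ythdf1 knockout, against backgrounds of 5.64% and 9.15%, and both passed between the knockouts, against 12.1%. That limit split genes lying close to it. Without control replicate 3, C1s1 and Masp1 also passed it in the Usp5 knockout (log2 fold changes -1.07 and 1.01). Cfi reached it in the Ythdf1 knockout when a single library was left out (1.02 at the highest). Cfi also passed under a correction for GC content and length that was picked once the data were known (1.11). Both knockouts were set against the same controls, so their results are not independent of each other.

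**Figure D1:**
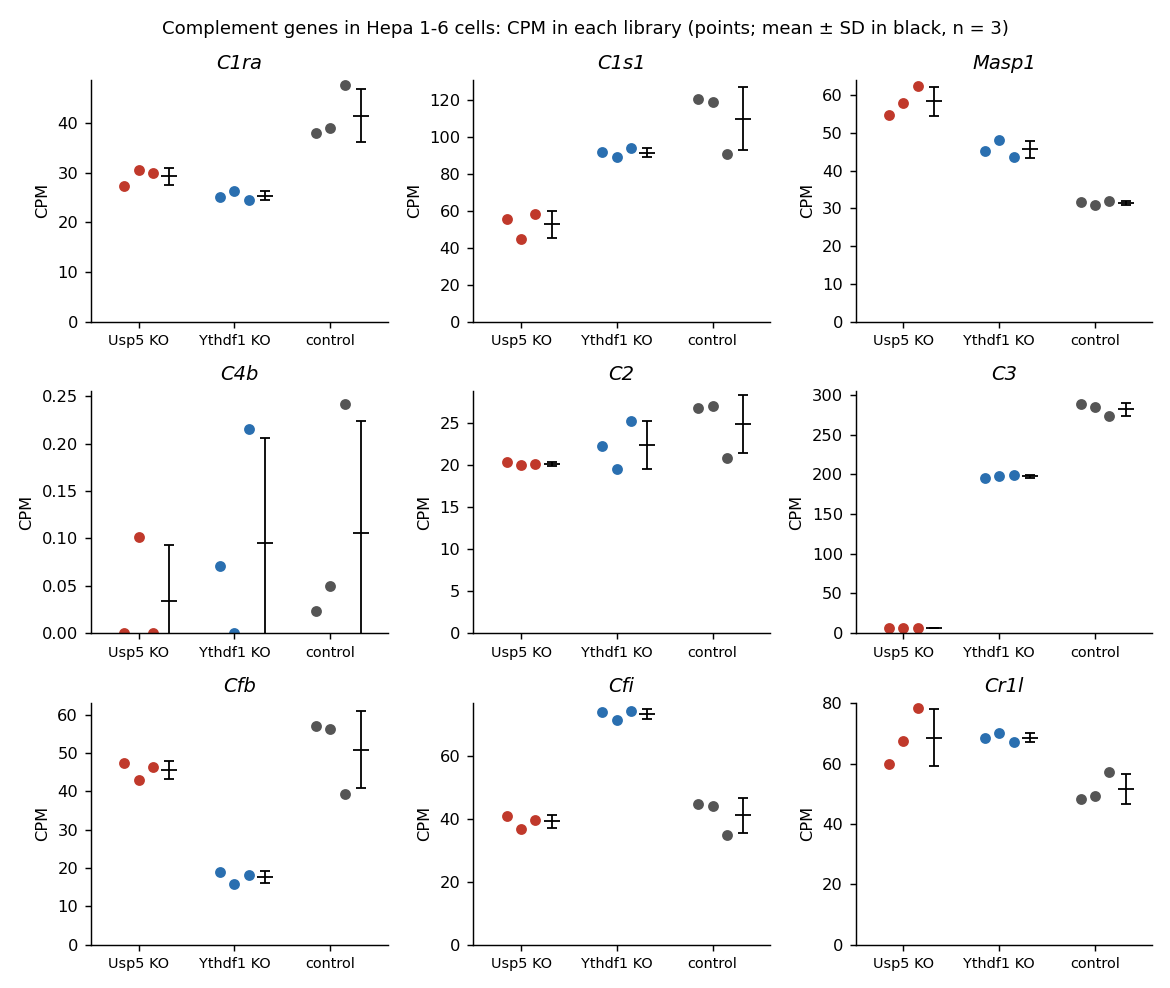
CPM of the 9 complement genes (vertical axis, linear, from 0) in each library of the Usp5 knockout, the Ythdf1 knockout and the control cells; points are libraries and black bars the mean ± SD of 3. C3 stands at 6.57 to 6.79 CPM in the Usp5 knockout against 273 to 289 CPM in controls, and Cfb is lowest and Cfi highest in the Ythdf1 knockout.

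Of the initiating proteases, C1s1 and, less stably, C1ra fell and Masp1 rose in the Usp5 knockout. C1s1, which encodes the protease that cleaves C4 and C2, had 55.4, 44.6 and 58.5 CPM in the Usp5 knockout, 92.0, 88.9 and 93.8 CPM in the Ythdf1 knockout and 120.4, 119 and 90.5 CPM in controls. All 3 Usp5 knockout libraries lay below the other 6. The Ythdf1 knockout libraries were near the lowest control (90.5 CPM), replicate 2 below it (88.9 CPM) and the others above it. C1s1 fell in the Usp5 knockout to 50.9% of control (log2 fold change -0.98 ± 0.108 SE, edgeR adjusted p = 0.000182). It was also lower there than in the Ythdf1 knockout (-0.86, adjusted p = 0.000153). In the Ythdf1 knockout against control its log2 fold change was -0.12, with a 95% interval of -0.36 to 0.12 and an edgeR adjusted p of 0.382.

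C1ra, which encodes the protease that activates C1s, had 27.3, 30.6 and 29.9 CPM in the Usp5 knockout, 25.2, 26.3 and 24.5 CPM in the Ythdf1 knockout and 38.0, 39.0 and 47.6 CPM in controls. Both knockouts lay below all controls, and the highest control was the third one. C1ra fell to 67.2% of control in the Ythdf1 knockout (log2 fold change -0.57 ± 0.117 SE, edgeR adjusted p = 0.00269) and to 74.5% in the Usp5 knockout (-0.43 ± 0.116, edgeR adjusted p = 0.0280). The call in the Usp5 knockout was the least stable of the set: leaving out any 1 Usp5 knockout library gave edgeR adjusted p-values of 0.0876, 0.0506 and 0.0560, and without control replicate 3 the log2 fold change was -0.28 (adjusted p = 0.0264). Of the 31-base words of C1ra transcripts, 56.9% also occur in C1rb, and the summed counts of both genes gave -0.32 with an edgeR adjusted p of 0.0588 in the Usp5 knockout and -0.52 with 0.00274 in the Ythdf1 knockout. C1s1 shares 33.5% of its words with C1s2, and their sum kept the Usp5 result (-0.88, edgeR adjusted p = 0.000313). The C1s1 to C1ra ratio of CPM per kilobase was 2.53 ± 0.437 in the Usp5 knockout, 5.06 ± 0.314 in the Ythdf1 knockout and 3.79 ± 0.984 in controls (SD, n = 3 each).

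Masp1, which encodes a lectin pathway protease, was higher in both knockouts and higher again in the Usp5 than in the Ythdf1 knockout. It had 54.7, 57.8 and 62.5 CPM in the Usp5 knockout, 45.1, 48.1 and 43.7 CPM in the Ythdf1 knockout and 31.8, 30.9 and 31.9 CPM in controls. The 3 groups did not overlap. Masp1 rose 1.96-fold in the Usp5 knockout (log2 fold change 0.97 ± 0.0799 SE, edgeR adjusted p = 2.44e-05) and 1.60-fold in the Ythdf1 knockout (0.68 ± 0.0799, edgeR adjusted p = 0.000127). The gap between the knockouts was smaller (0.29 ± 0.0791, edgeR adjusted p = 0.0115) and was 0.14 with an adjusted p of 0.0748 in a fit corrected for GC content and for the length of genes, chosen after the data had been seen. The genes overlapping Masp1 on the opposite strand, among them Rtp4 and Gm45338, stayed below 1 CPM in every group.

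Of the components that these proteases act on, C4b was at the limit of detection and C2 gave no call. C4b, one of the mouse genes for complement C4, had 0, 3 and 0 counts in the Usp5 knockout, 2, 0 and 6 in the Ythdf1 knockout and 1, 2 and 6 in controls. With 20 counts over all libraries it was not tested, and with 48.3% of its 31-base words in C4a even these counts are uncertain. C2, the serine protease of the classical convertase, had 20.4, 20.0 and 20.1 CPM in the Usp5 knockout, 22.3, 19.6 and 25.3 CPM in the Ythdf1 knockout and 26.8, 27.0 and 20.9 CPM in controls. The third control was close to the knockouts while the other controls were above all 6 of them. Its log2 fold change was -0.22 in the Usp5 knockout (95% interval -0.47 to 0.03, edgeR adjusted p = 0.189) and -0.01 in the Ythdf1 knockout (-0.25 to 0.24, edgeR adjusted p = 0.961). Zbtb12 overlaps C2 on the opposite strand at a similar level, with pooled values of 28.3, 22.1 and 24.9 CPM in the Usp5 knockout, the Ythdf1 knockout and controls, so that reads of the 2 genes may be mixed.

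C3, the protein on which all 3 pathways converge, had 6.79, 6.69 and 6.57 CPM in the Usp5 knockout, 195, 198 and 199 CPM in the Ythdf1 knockout and 289, 284 and 273 CPM in controls. The groups were far apart relative to their spread, and the Usp5 knockout means rest on 656 counts in all. C3 fell to 2.52% of control in the Usp5 knockout, a 39.7-fold lower level (log2 fold change -5.31 ± 0.0799 SE, 95% interval -5.49 to -5.14, edgeR adjusted p = 9.99e-11). It fell in the Ythdf1 knockout to 77.3% of control (-0.37 ± 0.0647, edgeR adjusted p = 0.00114). Between the knockouts the log2 fold change was -4.94 (edgeR adjusted p = 1.81e-10). By size of fall C3 was at place 32 of the 1339 genes that fell in the Usp5 knockout, and at place 1 of the 163 of those with at least 100 CPM in controls. In bulk RNA, fewer cells that express a gene and less RNA per cell cannot be told apart, for C3 as for the other genes.

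**Figure D2:**
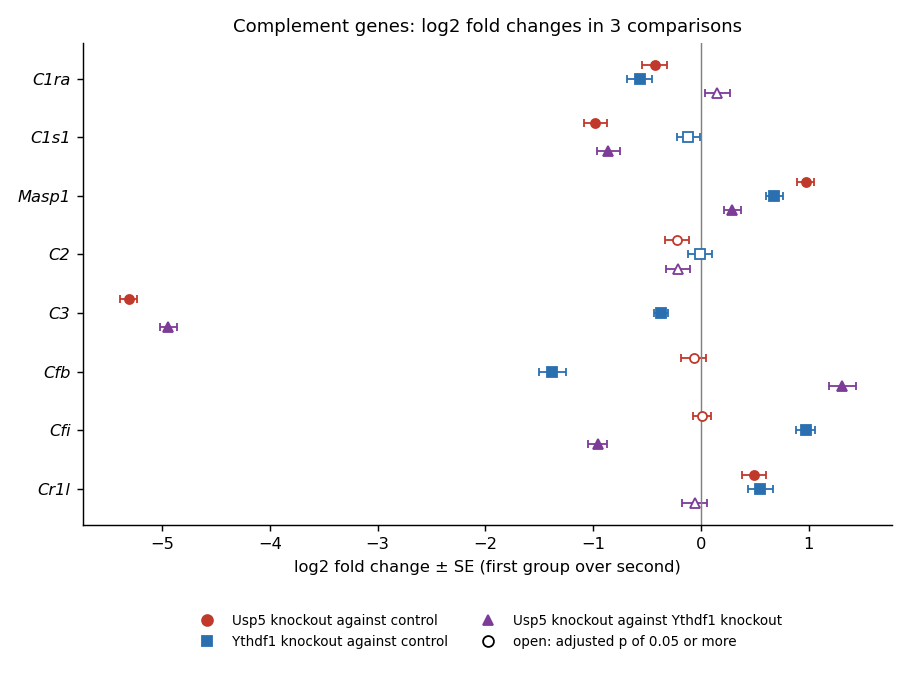
Log2 fold change ± SE of the 8 tested complement genes (rows) in the Usp5 knockout against control (circles), the Ythdf1 knockout against control (squares) and the Usp5 against the Ythdf1 knockout (triangles); open symbols have an adjusted p of 0.05 or more. C3 lies at -5.31 and -4.94 in the comparisons with the Usp5 knockout, and every other value lies between -1.38 and 1.31.

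Factor B and factor I, an activator and an inhibitor of the alternative pathway, moved in opposite directions in the Ythdf1 knockout. Cfb had 47.5, 43.1 and 46.3 CPM in the Usp5 knockout, 18.9, 15.9 and 18.3 CPM in the Ythdf1 knockout and 57.0, 56.3 and 39.4 CPM in controls. All Ythdf1 knockout libraries were below the other 6, and the Usp5 knockout lay inside the control range. Cfb fell to 38.5% of control in the Ythdf1 knockout (log2 fold change -1.38 ± 0.124 SE, edgeR adjusted p = 2.70e-05). In the Usp5 knockout its log2 fold change was -0.07 with a 95% interval of -0.33 to 0.20 (edgeR adjusted p = 0.721), and the difference between the knockouts was 1.31 (adjusted p = 2.47e-05).

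Cfi, which encodes the protease that cleaves C3b and C4b, had 41.1, 37.0 and 39.9 CPM in the Usp5 knockout, 74.2, 71.7 and 74.6 CPM in the Ythdf1 knockout and 44.9, 44.2 and 34.9 CPM in controls. Every Ythdf1 knockout library was above the other 6. Cfi rose 1.96-fold in the Ythdf1 knockout (log2 fold change 0.97 ± 0.0864 SE, edgeR adjusted p = 2.54e-05), against 0.01 in the Usp5 knockout (95% interval -0.18 to 0.20, edgeR adjusted p = 0.933), and the knockouts differed by -0.96 (adjusted p = 1.85e-05). Cr1l, the membrane regulator, had 59.9, 67.6 and 78.6 CPM in the Usp5 knockout, 68.6, 70.1 and 67.2 CPM in the Ythdf1 knockout and 48.4, 49.4 and 57.3 CPM in controls. Both knockouts lay above all controls. Cr1l rose 1.40-fold in the Usp5 knockout (log2 fold change 0.49 ± 0.113 SE, edgeR adjusted p = 0.0133) and 1.46-fold in the Ythdf1 knockout (0.55 ± 0.113, edgeR adjusted p = 0.00294). The Usp5 call was lost without control replicate 1 (0.43, adjusted p = 0.0576) or without control replicate 2 (0.43, adjusted p = 0.0673). Without control replicate 3, the library that stood apart, the counts of called genes stayed at 5, 6 and 5 in the 3 comparisons. Cfb in the Usp5 knockout then had a log2 fold change of -0.20 and C1s1 one of -1.07, and both kept their side of the threshold.

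Per kilobase of transcript, which allows levels of different genes to be compared, C3 and C1s1 led in controls and Cr1l led in both knockouts. In the Usp5 knockout, Cr1l was at 50.0 ± 6.84 CPM per kilobase (SD, n = 3 here and below), followed by C1s1 at 24.8 ± 3.43, Cfi at 19.2 ± 1.03, Cfb at 17.0 ± 0.860, Masp1 at 15.6 ± 1.04, C1ra at 9.82 ± 0.593, C2 at 9.01 ± 0.0954 and C3 at 1.30 ± 0.0217. Of these neighbours, Cfb and Masp1 overlapped between libraries and the others did not. Ythdf1 knockout cells had Cr1l at 49.9 ± 1.05 CPM per kilobase, C1s1 at 43.0 ± 1.15, C3 at 38.5 ± 0.361, Cfi at 35.8 ± 0.775, Masp1 at 12.2 ± 0.603, C2 at 10.0 ± 1.28, C1ra at 8.51 ± 0.305 and Cfb at 6.59 ± 0.589. Only C2 and C1ra overlapped there. Controls had C3 at 54.9 ± 1.57 CPM per kilobase, C1s1 at 51.6 ± 7.98, Cr1l at 37.6 ± 3.54, Cfi at 20.1 ± 2.74, Cfb at 19.0 ± 3.72, C1ra at 13.9 ± 1.77, C2 at 11.1 ± 1.54 and Masp1 at 8.43 ± 0.150. In controls the pairs C3 and C1s1, Cfi and Cfb, and Cfb and C1ra overlapped. With the effective length in the table, chosen after the data had been seen, Cr1l came first in controls as well and C3 the third.

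The sum over the 9 genes was 147 ± 10.1 CPM per kilobase in the Usp5 knockout, 204 ± 1.79 in the Ythdf1 knockout and 217 ± 12.1 in controls. C3 made up 0.891% of that sum in the Usp5 knockout, 18.8% in the Ythdf1 knockout and 25.4% in controls. The ratio of C3 to Cfb on this scale was 0.0767 ± 0.00394 in the Usp5 knockout, 5.87 ± 0.571 in the Ythdf1 knockout and 2.97 ± 0.569 in controls, so the knockouts lay on opposite sides of the controls. The ratio of C3 to its inhibitor's transcript Cfi was 0.0681 ± 0.00372 in the Usp5 knockout, 1.07 ± 0.0265 in the Ythdf1 knockout and 2.76 ± 0.326 in controls. For Cfb and C2, neighbours on chromosome 17, the ratio was 1.89 ± 0.0796 in the Usp5 knockout, 0.660 ± 0.0527 in the Ythdf1 knockout and 1.69 ± 0.110 in controls.

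**Figure D3:**
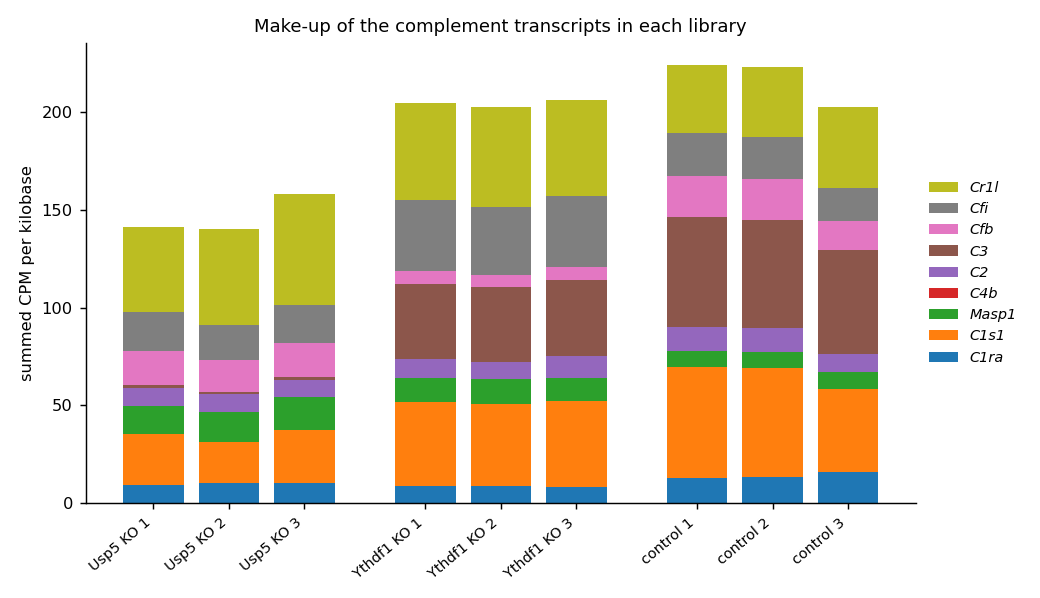
Summed CPM per kilobase of the 9 complement genes (vertical axis) in each library, split by gene in colour. The C3 layer is a thin line in the 3 Usp5 knockout libraries (0.891% of the sum on average) and a broad layer in controls (25.4%).

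Few of the other complement genes had enough counts for the test. Of 51 other complement genes listed, 34 were too low to test, 13 of them with 0 counts in all 9 libraries, and none exceeded 8 counts in any library. They include the C1q chains C1qa, C1qb and C1qc, the mannose-binding lectins Mbl1 and Mbl2, factor D (Cfd), the pore proteins C6, C7, C8a, C8b, C8g and C9, the C1 inhibitor Serping1, Cd55 and Vtn. The 17 tested genes comprised 7 components, 6 regulators and 4 receptors or binding proteins. In the Usp5 knockout 4 of the 17 rose and 2 fell, or 35.3% against the background of 19.8%. In the Ythdf1 knockout 4 rose and 4 fell, 47.1% against the background of 46.5%, and between the knockouts 8 of 17 passed, 47.1% against 48.5%. The shares in the Ythdf1 comparison and between the knockouts are thus close to those of all genes.

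Among the components, Hc, which encodes C5, had 0.675, 0.645 and 0.551 CPM in the Usp5 knockout, 0.810, 0.917 and 0.792 CPM in the Ythdf1 knockout and 1.46, 1.06 and 1.78 CPM in controls. Every control was above all knockout libraries. Hc fell in the Usp5 knockout (log2 fold change -1.09, edgeR adjusted p = 0.0185), a call lost without control replicate 1 (adjusted p = 0.0600) or Usp5 knockout replicate 2 (adjusted p = 0.0533). C1rb, the near-identical copy of C1ra, had 4.91, 3.97 and 4.68 CPM in the Usp5 knockout, 2.33, 3.30 and 2.95 CPM in the Ythdf1 knockout and 3.68, 2.92 and 2.34 CPM in controls. It rose in the Usp5 knockout (0.68, edgeR adjusted p = 0.0289), opposite to C1ra, and the call was lost without control replicate 2 (adjusted p = 0.107) or any 1 Usp5 knockout library (0.0918, 0.0519 and 0.0501). In the Ythdf1 knockout, C1s2, the copy of C1s1, fell (-1.02, edgeR adjusted p = 0.00110), as did C1rl, a C1r-like protease gene (-0.54, edgeR adjusted p = 0.00177). C4a, Masp2 and Cfp gave no call in any comparison.

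Of the 6 other regulators tested, Clu, Cd59a and Cpn1 rose in both knockouts, which share their controls. The backgrounds were 9.96% higher in the Usp5 and 23.7% higher in the Ythdf1 comparison. Clu, which encodes clusterin, an inhibitor of the terminal complex, had 2419, 2667 and 2471 CPM in the Usp5 knockout, 2695, 2821 and 2619 CPM in the Ythdf1 knockout and 1504, 1400 and 1888 CPM in controls. Cd59a, which blocks the membrane pore, had 15.9, 16.4 and 19.2 CPM in the Usp5 knockout, 19.3, 20.8 and 19.0 CPM in the Ythdf1 knockout and 11.0, 12.5 and 14.3 CPM in controls. Cpn1, the catalytic subunit of the carboxypeptidase that inactivates C3a and C5a, had 67.8, 53.0 and 59.3 CPM in the Usp5 knockout, 103, 95.6 and 105 CPM in the Ythdf1 knockout and 39.3, 37.3 and 36.7 CPM in controls. For each of these 3 genes, named because they rose, all knockout libraries were above all controls. The share of all tested genes that separate in this way was not counted. The log2 fold changes in the Usp5 knockout were 0.73 for Clu, 0.53 for Cd59a and 0.75 for Cpn1 (edgeR adjusted p of 0.00374, 0.0142 and 0.000372). Those in the Ythdf1 knockout were 0.90, 0.79 and 1.56 (edgeR adjusted p of 0.000447, 0.000625 and 2.65e-06). The Cd59a call in the Usp5 knockout was lost without control replicate 1 (adjusted p = 0.0559) or 2 (adjusted p = 0.0652). C4bp, a fluid-phase inhibitor of the classical convertase, fell in the Ythdf1 knockout (-1.24, edgeR adjusted p = 0.00139), and Cd46 gave no call in any comparison.

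C3ar1, the receptor for the C3 fragment C3a, had 3.14, 3.46 and 3.42 CPM in the Usp5 knockout, 0.458, 0.954 and 0.648 CPM in the Ythdf1 knockout and 2.72, 2.69 and 2.71 CPM in controls. It fell in the Ythdf1 knockout to 28.1% of control (log2 fold change -1.83, edgeR adjusted p = 0.000195), and its log2 fold change in the Usp5 knockout was 0.39 (edgeR adjusted p = 0.206). Cd93, a surface glycoprotein once taken for a C1q receptor, rose in the Ythdf1 knockout (1.34, edgeR adjusted p = 0.00222). C1qbp, a mainly mitochondrial protein that can bind C1q, fell in the Usp5 knockout (-0.34, edgeR adjusted p = 0.00855). Itgam gave no call in any comparison.

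**Figure D4:**
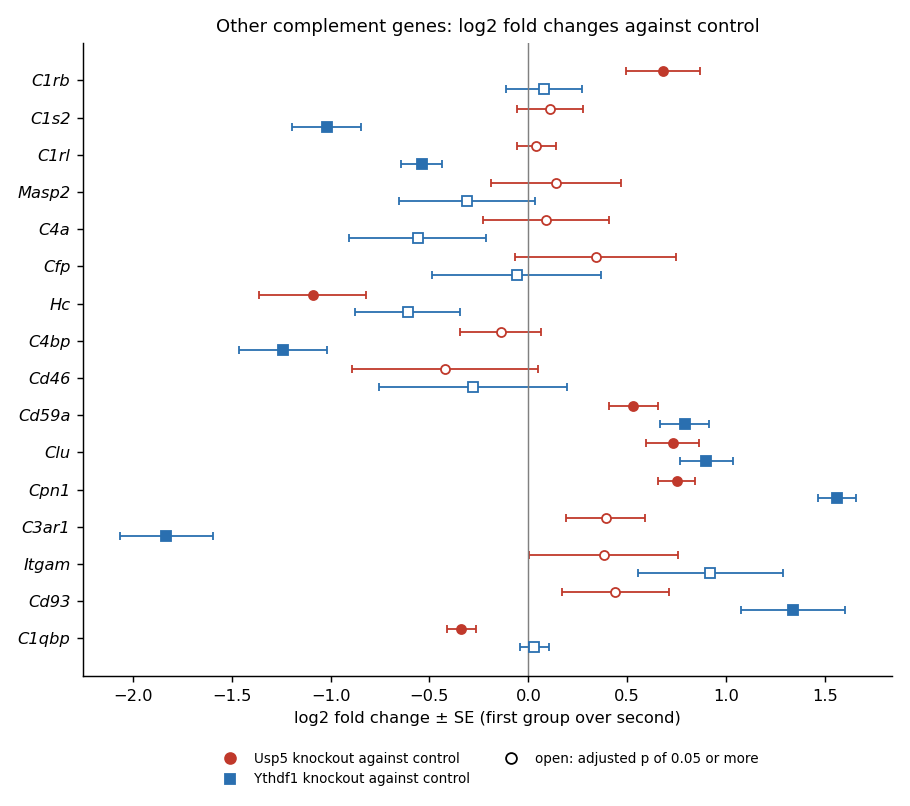
Log2 fold change ± SE of 16 of the 17 other complement genes with enough counts (rows) in the Usp5 knockout (circles) and the Ythdf1 knockout (squares), each against control; open symbols have an adjusted p of 0.05 or more. Clu, Cd59a and Cpn1 lie to the right in both knockouts, and C3ar1 lies at -1.83 in the Ythdf1 knockout.

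Genes of the cytokine and NF-kB pathways and the liver transcription factors known to act on complement genes were read from a list of 30, of which 27 were tested. In the Usp5 knockout 3 rose and 12 fell, with a median log2 fold change of -0.23, beside the background of 9.96% higher and 9.80% lower. The genes that fell included the NF-kB inhibitor gene Nfkbia (-1.30, edgeR adjusted p = 3.29e-05), Relb (-1.23, 0.000331), Tnfaip3 (-1.12, 1.47e-05) and Nfkb2 (-0.71, 0.00282), of which Nfkbia and Tnfaip3 encode feedback inhibitors of NF-kB that NF-kB itself induces. Il6st, the shared signalling receptor of the interleukin-6 family, had 44.9, 50.1 and 48.5 CPM in the Usp5 knockout, 64.5, 70.3 and 69.9 CPM in the Ythdf1 knockout and 89.8, 90.3 and 85.2 CPM in controls. It fell in the Usp5 knockout (-0.80, edgeR adjusted p = 5.44e-05), along with Socs3, a feedback target of STAT3 (-0.88, edgeR adjusted p = 0.000462), and the interferon-gamma receptor chain Ifngr2 (-0.97, edgeR adjusted p = 3.87e-05).

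Of the C/EBP factors, Cebpd had 12.1, 11.3 and 13.3 CPM in the Usp5 knockout, 25.2, 21.5 and 24.2 CPM in the Ythdf1 knockout and 23.1, 20.8 and 21.2 CPM in controls. It fell in the Usp5 knockout (log2 fold change -0.75, edgeR adjusted p = 0.000425), as did Cebpa (-0.59, edgeR adjusted p = 0.0141, but 0.0549 without control replicate 1). Cebpb gave -0.02 there (edgeR adjusted p = 0.921). The liver factor gene Foxa1 fell (-2.03, edgeR adjusted p = 8.84e-05), while Hnf4a and Foxa2 rose by 0.51 and 0.83 (edgeR adjusted p of 0.000562 and 0.00660). Rela and Stat3, which encode an NF-kB subunit and the main interleukin-6 effector, gave log2 fold changes of 0.12 and -0.15 (edgeR adjusted p of 0.505 and 0.192). Nfkb1 gave -0.29 (edgeR adjusted p = 0.0113), which was -0.27 with an adjusted p of 0.0513 without control replicate 1. The other gene that fell, Ifngr1 (-0.23, edgeR adjusted p = 0.0408), lost its call when any 1 of 7 libraries was left out. The cytokine genes Il6, Tnf and Il1b were too low to test.

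In the Ythdf1 knockout 8 genes of this list rose and 7 fell, with a median log2 fold change of -0.01, beside the background of 23.7% higher and 22.8% lower. Cebpb rose (1.28, edgeR adjusted p = 3.70e-05), at 381, 333 and 383 CPM in the Ythdf1 knockout against 179, 151 and 168 CPM in controls. Hnf4a (0.44, edgeR adjusted p = 0.000521) and the bile acid receptor gene Nr1h4 (0.81, edgeR adjusted p = 0.00137) rose as well. So did Rela (0.77, edgeR adjusted p = 0.000583) and Foxa2 (0.76, edgeR adjusted p = 0.0041). The Foxa2 call was lost after the correction for GC content and length (adjusted p = 0.107). Cebpd (0.26, edgeR adjusted p = 0.0406) and Tnfrsf1a (0.24, edgeR adjusted p = 0.0149) rose less. Both calls were lost without control replicate 2 (adjusted p of 0.145 and 0.0635). Il1rap, the accessory chain of the interleukin-1 receptor, fell to 22.8% of control (-2.13, edgeR adjusted p = 8.65e-05), and Jak2, a kinase of cytokine receptors, fell (-1.25, edgeR adjusted p = 3.39e-05), as did Il6ra (-0.44, edgeR adjusted p = 0.00141). Jak2 and Il1rap gave no call in the Usp5 knockout and differed between the knockouts, by 1.12 and 2.63 (edgeR adjusted p of 4.67e-05 and 1.73e-05). Nfkbia, Nfkb1, Socs3 and Il6st, lower in the Usp5 knockout, also fell in the Ythdf1 knockout. Their log2 fold changes there were -0.42, -0.30, -0.33 and -0.23 (edgeR adjusted p of 0.0104, 0.00356, 0.0343 and 0.0258). The Socs3 call was lost without control replicate 1 or 2 or Ythdf1 knockout replicate 2 (adjusted p of 0.107, 0.0836 and 0.0729). The Il6st call was lost without control replicate 1 or 2 or Ythdf1 knockout replicate 1 (adjusted p of 0.0582, 0.0609 and 0.0728). Between the knockouts 3 genes of the list were higher and 16 lower in the Usp5 knockout, against backgrounds of 23.3% and 25.2%.

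**Figure D5:**
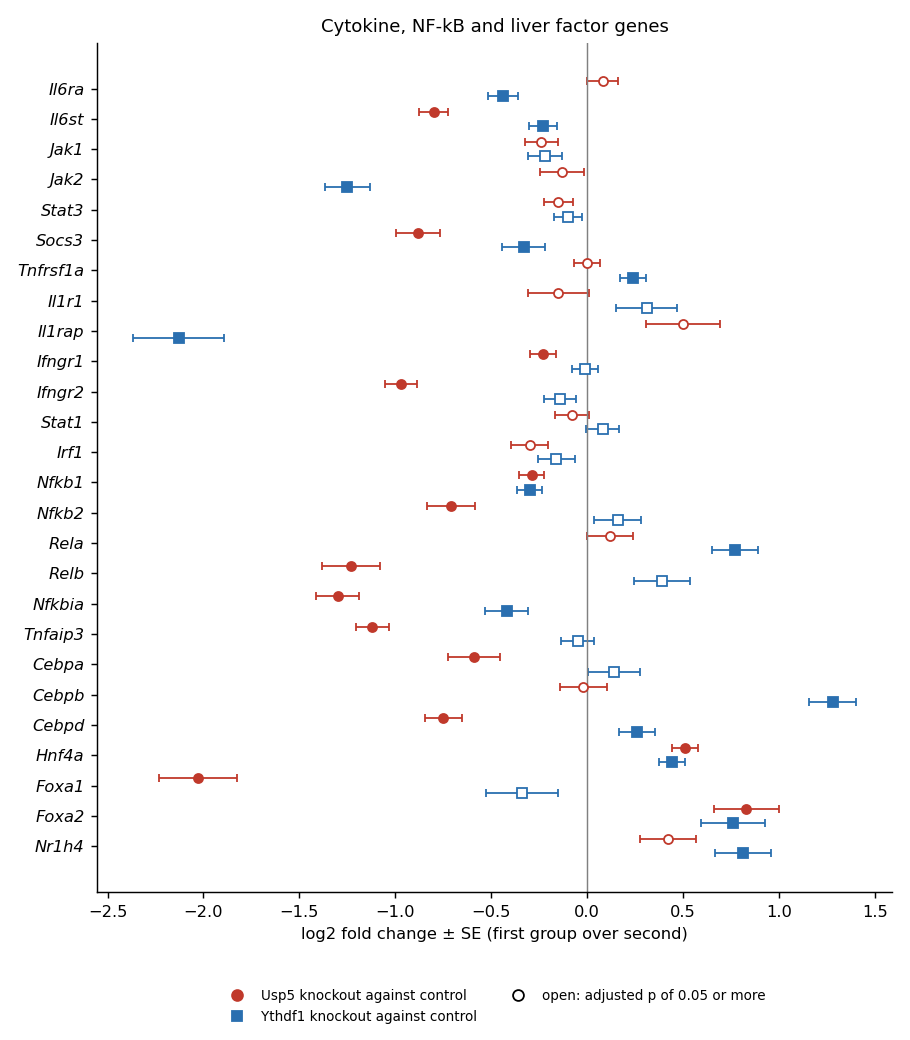
Log2 fold change ± SE of 26 of the 27 tested cytokine, NF-kB and liver factor genes (rows) in the Usp5 knockout (circles) and the Ythdf1 knockout (squares), each against control; open symbols have an adjusted p of 0.05 or more. In the Usp5 knockout Nfkbia, Relb, Tnfaip3 and Foxa1 lie to the left of -1, and in the Ythdf1 knockout Cebpb lies at 1.28 and Il1rap at -2.13.

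The genes whose levels were most like those of C3 over the 9 libraries were Nrp2, Enpp2, Lpin1, Edn1 and Repin1. Their Pearson r on log2(CPM + 1) was 0.997, 0.993, 0.990, 0.990 and 0.989. They were sought among 9416 tested protein-coding genes with a named symbol and a mean of at least 5 CPM. The libraries form 3 groups, and what these genes share with C3 is a lower level in the Usp5 knockout than in the other groups. The size of that fall differed widely. Against control the log2 fold changes there were -0.49 for Lpin1, -1.73 for Edn1, -2.19 for Nrp2, -2.72 for Enpp2 and -11.11 for Repin1, beside -5.31 for C3. In the Ythdf1 knockout against control C3 was lower (log2 fold change -0.37). The values were -0.14 for Nrp2, -0.05 for Edn1, 0.09 for Lpin1, 0.11 for Enpp2 and 0.29 for Repin1. Nrp2, which encodes the co-receptor neuropilin-2, had 7.19, 6.45 and 7.71 CPM in the Usp5 knockout, 27.6, 28.5 and 28.9 CPM in the Ythdf1 knockout and 33.0, 34.1 and 36.1 CPM in controls. Enpp2, the gene of autotaxin, had 5.47, 5.50 and 6.61 CPM in the Usp5 knockout, 38.4, 44.3 and 37.0 CPM in the Ythdf1 knockout and 37.5, 41.8 and 42.8 CPM in controls. Repin1 was at 0 counts in all Usp5 knockout libraries.

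Markers of other cell states moved beside these results. Of the 8 tested hepatocyte markers, 1 rose in the Usp5 knockout and 7 in the Ythdf1 knockout, against backgrounds of 9.96% and 23.7% higher, and the sum of the list was 2694 to 3190 CPM in the Usp5 knockout, 3505 to 3749 in the Ythdf1 knockout and 2423 to 2595 in controls. All 5 bile duct markers rose in the Usp5 knockout, against a background of 9.96% higher. In the Ythdf1 knockout 2 rose and 1 fell, against 23.7% higher and 22.8% lower. They summed to 700.2 to 803 CPM in the Usp5 knockout, 396 to 435 in the Ythdf1 knockout and 496 to 523 in controls. The stellate cell list summed to 1080 to 1452 CPM in the Usp5 knockout, 1024 to 1247 in the Ythdf1 knockout and 934 to 1288 in controls, nearly all of it Dcn, with Lrat at 0 in all libraries. Of its 4 tested genes, Pdgfra fell in the Usp5 knockout (log2 fold change -1.28, edgeR adjusted p = 2.71e-05) and Des in the Ythdf1 knockout (-1.46, edgeR adjusted p = 0.00149), against backgrounds of 9.80% and 22.8% lower. Of the 4 tested leukocyte genes, Cd14 rose in the Ythdf1 knockout (0.94, edgeR adjusted p = 0.000153), which is 25.0% against a background of 23.7% higher. The part of these markers in the complement results was not tested.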

How the data were processed

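RNA of 9 Hepa 1-6 samples was sequenced as mRNA libraries, per the labels' protocols. The authors deposited 1 table of counts per gene, with a gene length and an effective length in bases. Per the submitters' processing notes, fastp 0.23.2, STAR 2.7.10a, Salmon 1.9.0 and the GRCm39 build were used, with no roles given. The counts are whole numbers and were taken as rounded Salmon estimates. The annotation release and whether reads were counted by strand are not given in the sources used here. Columns of per-sample values not used numbered 0.

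CPM values are deposited counts over a library's total, and CPM per kilobase divides them by the deposited length. The test was the quasi-likelihood test of edgeR 4.0.16 under R 4.3.3 (filterByExpr, TMM, all 9 samples, group as the only term), with Benjamini-Hochberg adjustment over 13661 genes and calls at an adjusted p under 0.05. Fold changes are edgeR's log2 values with their SE. Other settings tried were DESeq2 1.42.0, limma-voom 3.58.1, RLE scaling, unscaled library sizes, other filters, stricter thresholds, fits of 2 groups, a replicate block, sums of near-identical copies and leaving out each library. Correcting for GC content and length, and effective lengths, were chosen after seeing the data. Scripts were tested on simulated data.

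The genes and lists were chosen with earlier results of these data known. All 9 genes are named. Of the other complement genes every tested one could be named. Of the cytokine list, called genes and Il6st, Stat3, Cebpb, Cebpd, Nfkb1 and Rela could be named. In these lists, 2 genes that are counted are not reported here by name. The 5 genes most like C3 follow Pearson r. Words of 31 bases, overlaps and chromosomes come from a GRCm38 annotation matched by identifier. The labels do not say that libraries of a group came from separate cultures, and the spread that p-values measure may be technical.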

Additional observations from a re-analysis of the deposited data

How the results depend on the processing

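Of 438 log2 fold changes of the complement genes recomputed under other settings, 430 kept their side of the threshold and 8 lost a call. Of those with a call in either fit, 0 changed direction. Uncalled values near 0 did change sign, such as Cfi in the Usp5 comparison (-0.07 to 0.07). In the Usp5 comparison the C1ra call was lost in the fit of 2 groups (-0.43, adjusted p = 0.0661), on summing with C1rb and without each Usp5 knockout library, and the Cr1l call without control replicate 1 or 2. The Masp1 call between the knockouts was lost after correction for GC content and length. The cause was not tested. In the cytokine list, 2 values with a call in either fit changed direction, both in the Ythdf1 comparison after the correction for GC content and length. Il6st went from -0.23 (edgeR adjusted p = 0.0258) to 0.08 (0.381). Tnfaip3, without a call in the main fit, was at 0.19 (0.0361).

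With libraries left out singly, called genes ranged between 1494 and 4371 in the Usp5 comparison, 4848 and 6479 in the Ythdf1 comparison and 5002 and 7648 between the knockouts. The complement genes called ranged between 4 and 5 in the Usp5 comparison and stayed at 6 and 5 in the other comparisons, the other complement genes between 4 and 6, 8 and 9, and 6 and 9, and the cytokine list genes between 12 and 18, 11 and 16, and 15 and 19. The fit of 2 groups called 1756 genes in the Usp5 comparison. At an adjusted p under 0.01 the Usp5 comparison had 1305 genes, 3 complement genes and 3 other complement genes, and the knockouts differed in 4363 genes. Asking also for a 2-fold change left 771 genes, 1 complement gene, 1 other complement gene and 4 cytokine list genes in the Usp5 comparison. It left 1250, 1, 5 and 3 in the Ythdf1 comparison and 1656, 2, 3 and 7 between the knockouts. These counts are smaller by construction. Library sizes alone put 35.9% of Usp5 calls and 34.0% of Ythdf1 calls on the higher side, against 50.4% and 50.9% with TMM, and moved the median of all genes in the Ythdf1 comparison by -0.14. TMM library sizes moved mean C3 to 207 CPM in the Ythdf1 knockout and 268 CPM in controls, against 198 and 282.

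Same-numbered libraries deviated together (r over 0.1) in 4 of 9 pairs, with r between -0.26 and 0.30. Differently numbered pairs had r between -0.33 and 0.35. The main fit did not use the numbers as pairs, and whether libraries of 1 number shared a batch was not tested. With a replicate block, 2346, 6198 and 6458 genes and 5, 6 and 5 complement genes were called, and the C1rb call in the Usp5 comparison was lost (0.69, adjusted p = 0.0534). C4b could not be tested at this depth, and counts of 1 to 8 in the untested complement genes do not exclude expression.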
